A study of Mus musculus with 26 samples.

Results

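RNA recovered from wild-type mouse brown fat with an antibody against IMP2 was compared with RNA recovered with nonspecific IgG, with 1 library of each. The genes compared were those with at least 20 counts in both libraries, taking for each gene symbol the listed transcript with the highest summed count, which gave 5161 of the 9378 genes in the deposited table (55.0%). Another 3029 genes were under this minimum only in the IMP2 library, 6 only in the IgG library and 1182 in both.

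IMP2 is the product of the Igf2bp2 gene and belongs to the IGF2BP family of proteins, which bind mRNAs in the cytoplasm and affect their stability, localisation and translation. In RNA immunoprecipitation an antibody pulls a protein out of a tissue extract together with the RNA bound to it, and IgG of no particular specificity shows which RNA sticks to the beads and antibody by itself. Brown fat burns fatty acids to make heat through Ucp1, an uncoupling protein of the mitochondrial inner membrane, and cold exposure turns this on.

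The series compares Imp2 knockout mice with their wild-type littermates on a C57Bl/6J background, in 14 liver samples, which were not analysed here, and 12 brown fat libraries. The brown fat came from males aged 10 weeks on normal chow that had spent the night at 4 °C. One deposited table holds the wild-type IMP2 immunoprecipitate (library 25), the wild-type IgG immunoprecipitate (library 26) and 2 wild-type total RNA libraries (15 and 20). A second, shorter table holds IMP2 immunoprecipitates of wild-type mice (libraries 21 and 22) and of Imp2 knockout mice (23 and 24), with total RNA of both genotypes. The knockout mice carry the deletion in every cell of the body. The knockout immunoprecipitate measures what the IMP2 antibody recovers without IMP2. The IgG immunoprecipitate measures recovery without that antibody, from wild-type tissue that has IMP2. How many animals went into a library, and which libraries came from the same animal, is not given in the sources used here.

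Summed over named genes, the depth was 1321756 counts in the IMP2 library, 3750103 in the IgG library, and 1466519 and 2701287 in total RNA. Levels are given as CPM, counts per 1000000 after TMM scaling, which assumes that most genes do not differ. With 1 library on each side the comparison has no replicate check and no test. Intervals are exact 95% binomial intervals on the ratio, which cover counting error only, and amplified copies of a molecule count as separate reads.

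The tissue carried the RNAs of brown fat. Of 10 brown fat identity genes all were listed, and 9 passed the count minimum. Ucp1 had 6917 CPM in the IMP2 library, 6398 CPM in the IgG library, and 5983 and 5305 CPM in total RNA. The IMP2 and IgG libraries were thus close for Ucp1 (log2 0.11, 95% interval 0.08 to 0.15), and by library size alone the value lay on the other side of 0, at -0.07. The 9 brown fat genes had a median log2 ratio of 0.14, which was also the median over all 5161 genes, 0.14.

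Igf2bp2 itself was near the bottom of the measured range, with 8 counts in the IMP2 library, 16 in the IgG library, and 20 and 16 in total RNA. It was under the minimum, and the interval on its ratio of IMP2 over IgG ran from 0.596 to 3.99. Igf2bp1 and Igf2bp3, the other members of the family, were not listed. These RNA counts say nothing of the amount of IMP2 protein on the beads.

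Most genes, 4742 of 5161, were within 2-fold between the antibodies. The log2 ratio of IMP2 over IgG had an SD of 0.569 over the 5161 genes and ran from -2.95 to 3.31, with 3141 genes above 0 and 2020 below. A ratio of at least 2-fold higher in the IMP2 library was found for 249 genes (4.82%), and a ratio of 1/2 or less for 170 (3.29%). When counting error was taken into account, the interval lay wholly above 2-fold for 40 genes (0.775%) and wholly below 1/2 for 43 (0.833%). Scaling by library size alone moved every log2 ratio down by the same amount, which took the median over all genes to -0.04 and changed the split to 131 genes at least 2-fold higher and 277 at 1/2 or less. Of the 249 higher genes 131 remained past 2-fold under that scaling, and of the 40 by the interval 18.

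These differences were about as wide as those between the total RNA libraries, which are of 1 group. Over the 4756 genes with at least 20 counts in all 4 libraries, 367 (7.72%) were past 2-fold in either direction between IMP2 and IgG, and 322 (6.77%) between the total RNA libraries 15 and 20. The interval lay wholly past 2-fold for 76 genes between IMP2 and IgG and for 77 between the total RNA libraries. The SD of the log2 ratio was 0.561 for IMP2 over IgG and 0.535 for total RNA, where counting error alone would give 0.223 and 0.231. Without the limit to 4 libraries, 416 of 5440 genes (7.65%) were past 2-fold between the total RNA libraries. Immunoprecipitates 21 and 22, of 1 group in the second table, were closer, with 12 of 1189 genes (1.01%) past 2-fold and an SD of 0.349. Over the same 1189 genes IMP2 and IgG differed by 2-fold or more for 65 (5.47%), of which 54 were higher in the IMP2 library and 11 lower, and the total RNA libraries for 44 (3.70%). Ratios past 2-fold were thus found between single libraries of 1 group as well as between the antibodies.

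**Figure D1:**
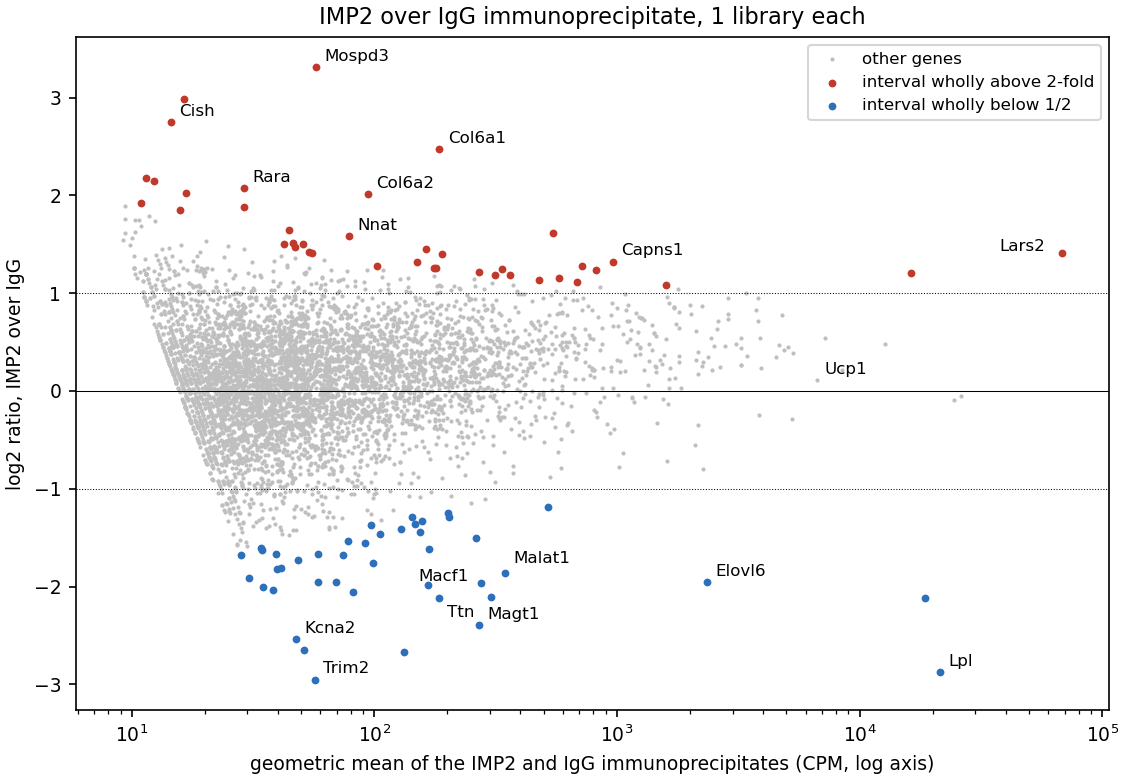
Each point is 1 of 5161 genes, with its level on the horizontal axis (geometric mean of the IMP2 and IgG libraries in CPM, log scale) and its log2 ratio of IMP2 over IgG on the vertical axis; dotted lines mark 2-fold. Red marks the 40 genes whose 95% counting interval lies wholly above 2-fold and blue the 43 wholly below 1/2, with Lpl low at a level where counting error is small, and the slanted left edge comes from the count minimum.

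The minimum of 20 counts was not the same hurdle on both sides, since 20 counts in the IMP2 library correspond to 64.4 counts in the deeper IgG library at a ratio of 1. Genes with a low ratio were therefore lost more often, and the median counts of the genes kept were 60 in the IMP2 library and 187 in the IgG library. The genes left out with most IgG counts were Trdn, which anchors the calcium release complex of muscle (14 counts in the IMP2 library, 269 in the IgG library), Syne2, a giant protein of the nuclear envelope (18 IMP2 and 261 IgG counts), Ubn2 (18 IMP2 and 232 IgG counts), Sbno1 (18 IMP2 and 224 IgG counts) and Lama5, a laminin chain (6 IMP2 and 218 IgG counts). On the other side the minimum removed few counts, as in Trnt1, which adds the CCA end to tRNAs (23 counts in the IMP2 library and 17 in the IgG library), and Cox4i2, a cytochrome oxidase subunit isoform (22 IMP2 and 18 IgG counts).

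Among the genes highest in the IMP2 library, ranked by the bound of the interval nearest to a ratio of 1, Mospd3 came first. It encodes a membrane protein of the endoplasmic reticulum and lies at chr5:137596645-137601079 (mm10). Mospd3 had 182 CPM in the IMP2 library, 18.3 CPM in the IgG library, and 38.6 and 36.3 CPM in total RNA, and was 9.92-fold higher than in the IgG library (interval 7.61 to 13.0). Both total RNA libraries lay between the immunoprecipitates, nearer to IgG.

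Col6a1 and Col6a2 encode chains of collagen VI, a microfibril that lies next to basement membranes, and both stood high. Col6a1 (chr10:76708792-76726044) had 438 CPM in the IMP2 library, 78.6 CPM in the IgG library, and 176 and 128 CPM in total RNA, and was 5.57-fold higher than in the IgG library (interval 4.85 to 6.41). Col6a2 (chr10:76595756-76623630), its neighbour on the chromosome, had 189 CPM in the IMP2 library, 46.6 CPM in the IgG library, and 98.4 and 68.0 CPM in total RNA, and was 4.05-fold higher than in the IgG library (interval 3.33 to 4.92). For both genes the IMP2 library was the highest of the 4, total RNA came next and IgG was lowest.

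Signalling genes in this group had few counts. Cish, which damps cytokine signals through STAT5, had 48 counts in the IMP2 library, 23 in the IgG library, and 58 and 30 in total RNA (6.72-fold, 95% interval 4.01 to 11.6). Rara, a nuclear receptor for retinoic acid, had 76 counts in the IMP2 library, 58 in the IgG library, and 63 and 67 in total RNA (log2 2.08, 95% interval 1.56 to 2.60). Tgfb1i1, a focal adhesion adaptor, had 33 counts in the IMP2 library, 24 in the IgG library, and 15 and 14 in total RNA (log2 2.15, 95% interval 1.34 to 2.97). The total RNA libraries also differed for Cish, at 40.7 and 11.3 CPM. Nnat, the imprinted proteolipid neuronatin, differed more between the total RNA libraries than between the antibodies, with 137 CPM in the IMP2 library, 45.7 CPM in the IgG library, and 227 and 67.6 CPM in total RNA (log2 1.58, 95% interval 1.28 to 1.89).

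More abundant RNAs in the group gave narrower intervals. Lars2, the mitochondrial leucyl-tRNA synthetase (chr9:123366927-123462675), had 111420.0 CPM in the IMP2 library, 41965 CPM in the IgG library, and 33978 and 28732 CPM in total RNA (log2 1.41, 95% interval 1.40 to 1.42). It took 10.7% of all gene counts in the IMP2 library, 4.58% in the IgG library and 3.30 and 2.82% in total RNA, so it weighs on any scaling by the total. The mouse Lars2 transcript is known to carry a stretch that resembles mitochondrial ribosomal RNA, and reads from either cannot be told apart in these counts. Capns1, the small regulatory subunit of calpain proteases, had 1520.3 CPM in the IMP2 library, 607 CPM in the IgG library, and 1331 and 1038 CPM in total RNA (log2 1.32, 95% interval 1.24 to 1.41). Mfge8, a secreted bridge between dying cells and phagocytes, had 270.4 CPM in the IMP2 library, 99.1 CPM in the IgG library, and 207 and 254 CPM in total RNA (log2 1.45, 95% interval 1.24 to 1.66). For Capns1 and Mfge8 the IMP2 library was just above total RNA, and IgG was the library that stood apart, below it.

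The others of the 15 genes highest by this rank were Myl6b, a myosin light chain (log2 1.88), Serping1, the complement C1 inhibitor (2.18), the transmembrane protein Plxdc2 (2.03), C1qa, a macrophage product of the complement system (1.64), and Eno1b (2.98). Eno1b is a near copy of the glycolytic gene Eno1, and its counts are uncertain for that reason. Serping1 had 31 counts in the IMP2 library and 22 in the IgG library, and Plxdc2 had 43 in the IMP2 library and 34 in the IgG library, so their intervals were wide.

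Among the genes lowest in the IMP2 library was one of the most abundant RNAs of the tissue. Lpl, the lipoprotein lipase that releases fatty acids from circulating lipid (chr8:68880555-68906932), had 7936 CPM in the IMP2 library, 58279.8 CPM in the IgG library, and 34326 and 25304 CPM in total RNA. It was 7.34-fold lower than in the IgG library (interval 7.20 to 7.49). IgG was the highest of the 4 libraries and IMP2 the lowest, with total RNA between them at 29815 ± 6379.6 CPM (SD, n = 2). Lpl took 0.764% of gene counts in the IMP2 library and 6.36% in the IgG library.

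Elovl6, a fatty acid elongase, had 1192 CPM in the IMP2 library, 4613 CPM in the IgG library, and 4456 and 5351 CPM in total RNA (log2 -1.95, 95% interval -2.03 to -1.88). Here IgG matched total RNA, and the IMP2 library alone was low.

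A similar picture was seen for Magt1, a membrane protein of magnesium transport and protein glycosylation, and Dbt, the core subunit of the branched-chain keto acid dehydrogenase. Magt1 had 118 CPM in the IMP2 library, 621 CPM in the IgG library, and 816 and 457 CPM in total RNA (log2 -2.40, 95% interval -2.65 to -2.16), and Dbt had 146 CPM in the IMP2 library, 630.0 CPM in the IgG library, and 1085 and 483 CPM in total RNA (log2 -2.11, 95% interval -2.33 to -1.89). Trim2, a ubiquitin ligase, had only 26 counts in the IMP2 library against 648 in the IgG library (log2 -2.95, 95% interval -3.58 to -2.39), and its total RNA libraries held 193 and 69.9 CPM. In these genes the IMP2 library was below both total RNA libraries.

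Another set stood apart because IgG was high while the IMP2 library matched total RNA. Macf1, a giant linker of actin and microtubules, had 139 CPM in the IMP2 library, 542 CPM in the IgG library, and 141 and 144 CPM in total RNA (log2 -1.96, 95% interval -2.19 to -1.74). Adrbk2, a kinase that turns off G protein-coupled receptors, had 84.1 CPM in the IMP2 library, 332 CPM in the IgG library, and 87.8 and 80.8 CPM in total RNA (log2 -1.98, 95% interval -2.28 to -1.70). Mll2, a histone methyltransferase, had 29.9 CPM in the IMP2 library, 115 CPM in the IgG library, and 26.7 and 30.2 CPM in total RNA (log2 -1.95, 95% interval -2.47 to -1.47). Dst, a relative of Macf1, followed the same order, with 35.4 CPM in the IMP2 library, 137 CPM in the IgG library, and 38.6 and 48.0 CPM in total RNA.

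Other low genes were Ttn, the muscle protein titin (log2 -2.12), the initiation factor Eif5b (-2.05), the nuclear noncoding RNA Malat1 (-1.86) and the potassium channel Kcna2 (-2.54). Malat1 had 181 CPM in the IMP2 library, 658 CPM in the IgG library, and 1123 and 360.3 CPM in total RNA. Kcna2 held 25 counts in the IMP2 library, close to the minimum, and 468 in the IgG library.

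**Figure D2:**
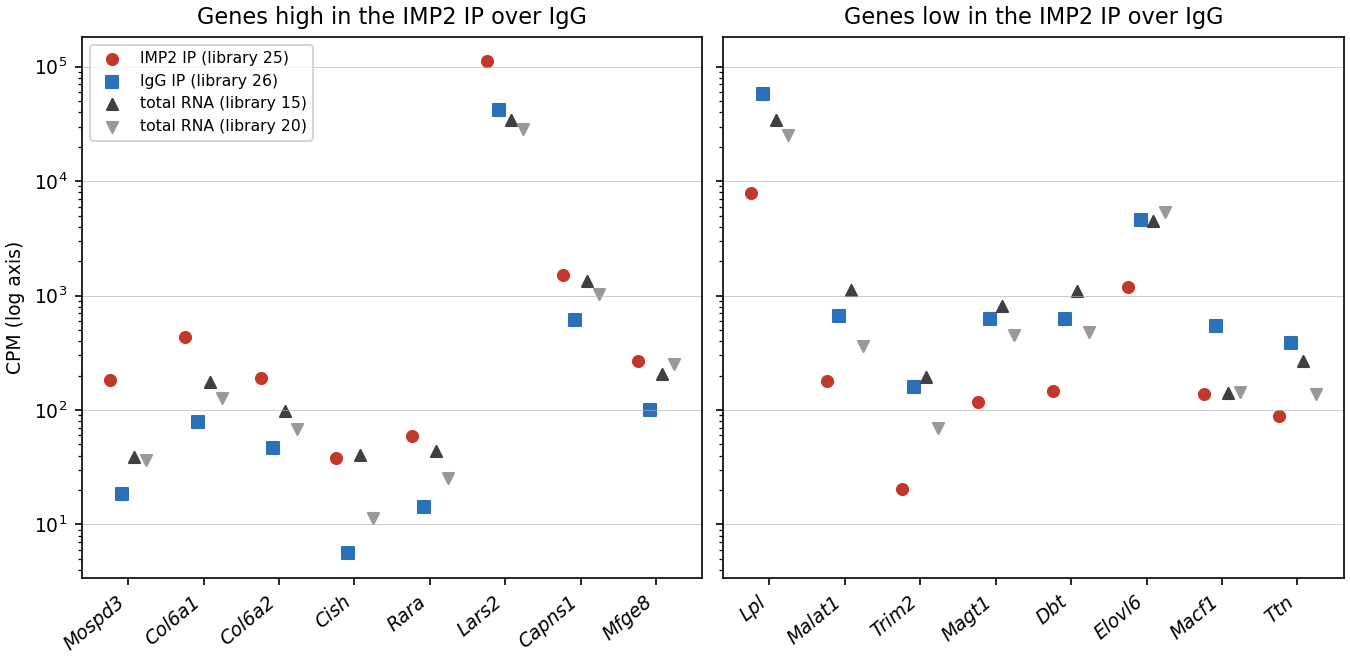
CPM on a log axis for 8 genes high (left) and 8 genes low (right) in the IMP2 over the IgG library, with 1 point for each library: IMP2 immunoprecipitate, IgG immunoprecipitate and total RNA 15 and 20. Total RNA lies between the immunoprecipitates for Mospd3, Col6a1 and Lpl, near IMP2 for Capns1 and Macf1, and near IgG for Elovl6.

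Set against total RNA, both immunoprecipitates contributed to the ratios. Total RNA was the mean of libraries 15 and 20. Over the 249 genes at least 2-fold higher, the median log2 level relative to total RNA was 0.29 in the IMP2 library and -0.94 in the IgG library. IgG was below total RNA for 230 of them, and IMP2 was above it for 184. Over the 170 genes at 1/2 or less the medians were -0.48 in the IMP2 library and 0.79 in the IgG library, and for 122 of them IMP2 was below total RNA while IgG was above it. For both sets the IgG library was thus the one farther from total RNA. These genes were chosen on the ratio of the same libraries, and the values describe them only. Over all 5161 genes the medians were 0.08 in the IMP2 library and -0.03 in the IgG library.

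The ratio was related to the length of the gene. Gene span, from the start to the end of the annotated gene with its introns, was known for 5151 genes. In the 644 genes of the shortest of 8 equal bins (96 to 4445 bases) the median log2 ratio of IMP2 over IgG was 0.38, with 49 genes at least 2-fold higher and 1 at 1/2 or less. In the 643 genes of the longest bin (71942 to 1301793 bases) it was -0.08, with 43 genes at least 2-fold higher and 54 at 1/2 or less. The medians of the bins between them decreased in order, through 0.30, 0.17, 0.12, 0.11, 0.07 and 0.03. Across genes Pearson's r between log2 ratio and log2 span was -0.25 and Spearman's rho -0.25; genes of 1 pair of libraries share depth and handling and are not independent replicates.

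Total RNA 15 over 20 was also related to gene span, less steeply. Its median log2 was -0.09 in the shortest bin and 0.11 in the longest, with r of 0.10 and rho of 0.11. These libraries are of the same group, so the sign of their ratio is arbitrary and only the size of the relation can be compared. The relation of IMP2 over IgG with span was also found when genes were split at the median total RNA level. In the more abundant genes the medians over 4 bins of span ran from 0.40 to 0.04, and in the less abundant ones from 0.21 to -0.10. Against total RNA, the IgG library went from -0.33 in the shortest bin to 0.13 in the longest, and the IMP2 library from 0.08 to 0.04.

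**Figure D3:**
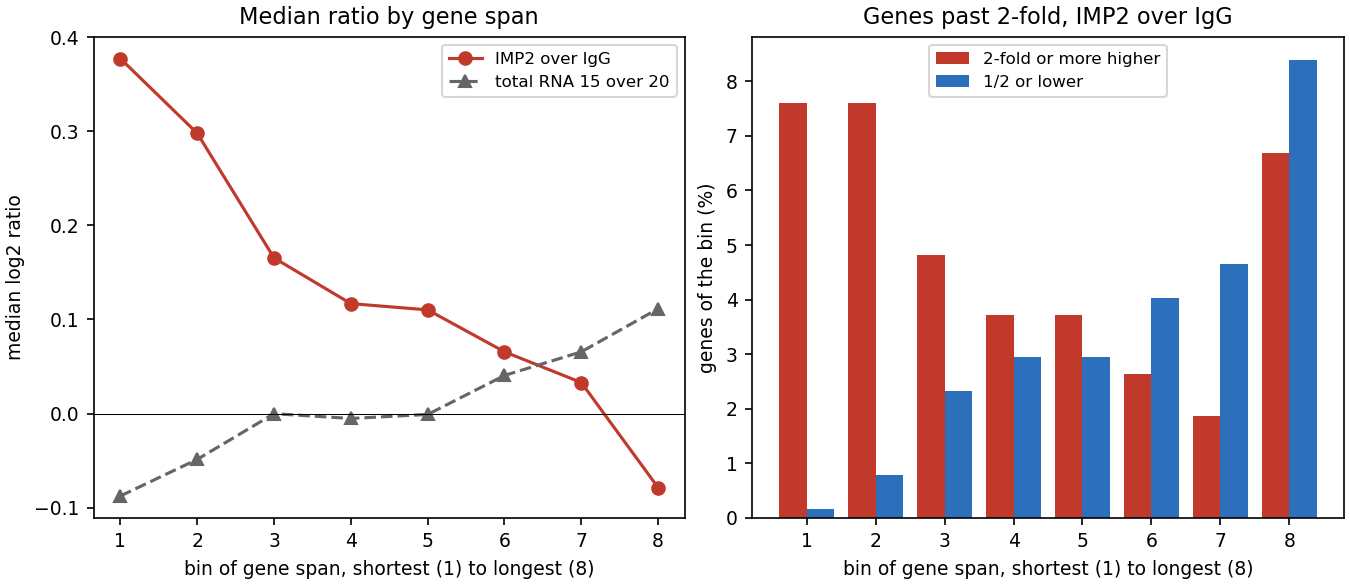
Left, median log2 ratio in 8 equal bins of gene span from shortest to longest, for IMP2 over IgG (red) and for total RNA 15 over 20 (grey). Right, the percentage of genes in each bin at least 2-fold higher (red) or at 1/2 or lower (blue) in IMP2 over IgG, with 0.155% lower in the shortest bin and 8.40% in the longest.

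The list of giant mRNAs showed the same feature. Of 30 genes 26 were listed and 19 passed, with a median log2 ratio of -1.18, 15 below 0 and 12 at 1/2 or less. Over all 5161 genes 2020 were below 0 and 170 (3.29%) at 1/2 or less. Besides Ttn, Macf1 and Dst it held Ahnak, a giant scaffold protein of the cell cortex (log2 -1.18). Fbn1, the fibrillin of elastic microfibres (0.47), Hspg2, the basement membrane proteoglycan perlecan (0.33), and Flna, an actin cross-linker (0.22), were above 0. Their median span was 134633 bases, against 18004 for all genes.

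RNAs of the respiratory chain were higher in the IMP2 library than the median gene. Abundant genes were so in general, with a median log2 ratio of 0.37 in the 645 genes of the highest of 8 bins of total RNA level. The lowest of these bins also had a median above that of all genes, at 0.22. In the shortest 645 of the more abundant genes the median was 0.40. Whether the chain stood apart from genes of like level and span was not tested. Of 36 complex I subunits encoded in the nucleus all passed, 32 were above 0 and 29 had an interval wholly above 0, with a median of 0.46. Over all 5161 genes 3141 were above 0 and 1589 (30.8%) had an interval wholly above it, with a median of 0.14. One was past 2-fold, Ndufs6, with 2321 CPM in the IMP2 library, 1095 CPM in the IgG library, and 2455 and 3460.2 CPM in total RNA (log2 1.08, 95% interval 1.02 to 1.15), and Ndufs1 was lowest (-0.25). Summed over the list, complex I had 35914 CPM in the IMP2 library, 23761 CPM in the IgG library, and 35758 and 43405 CPM in total RNA. The IMP2 library was thus at the level of total RNA, and IgG was the low one.

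The same held for the rest of the chain. Of 27 subunits of complexes II to IV 26 passed, with a median of 0.38 and 24 above 0, led by Uqcr10 and Cox7a1 (both 0.95), parts of the cytochrome bc complex and cytochrome oxidase. Of 19 ATP synthase genes 17 were listed and 13 passed, with a median of 0.44 and 2 past 2-fold. These were 2010107E04Rik (1.61), a small protein of the synthase, and Atp5d, the delta subunit of its rotor stalk, which was only just past it. Atp5d was also far apart between the total RNA libraries, at 2179 and 6539.7 CPM, with 4839 CPM in the IMP2 library and 2417 CPM in the IgG library.

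Ribosomal protein RNAs had medians of a like size. Of 79 cytosolic ribosomal proteins 57 were listed and 38 passed, with a median of 0.36 and 27 above 0, from Rps2 (-0.69) to Rpl29 (1.03). Of the 38, 20 had an interval wholly above 0 and 6 wholly below it. Over all 5161 genes 3141 were above 0, with 1589 intervals wholly above it and 753 wholly below. Summed over the list, cytosolic ribosomal proteins had 7748 CPM in the IMP2 library and 6365 CPM in the IgG library. Total RNA had 11388 and 13635 CPM, so both immunoprecipitates held less than total RNA. Many have near-identical copies elsewhere in the genome, so their counts are uncertain. Of 76 mitochondrial ribosomal proteins 73 were listed and 64 passed, with a median of 0.32 and 52 above 0. Mrps11 was the 1 past 2-fold, with 126 counts in the IMP2 library, 160 in the IgG library, and 49 and 153 in total RNA (log2 1.34, 95% interval 0.99 to 1.69). The median spans were 8097 bases for complex I, 5495 for complexes II to IV and 7082 for ATP synthase. They were 3206.5 for cytosolic and 7224.5 for mitochondrial ribosomal proteins. All were below the 18004 bases of the median gene, and the part of span and of RNA level in these medians was not tested.

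Other mitochondrial and metabolic lists lay near the median of all genes. Fatty acid activation and oxidation had a median of 0.21 over 23 genes with none past 2-fold, among them Cpt1b, the gate for fatty acid entry into muscle and brown fat mitochondria (0.75). Citric acid cycle and pyruvate genes had a median of 0.13 over 24, and glycolysis and glucose uptake 0.13 over 16, both below 0 by library size alone and both with none past 2-fold. Mitochondrial import, chaperones and dynamics had a median of 0.21 over 37, with the import factors Tomm6 (1.14) and Timm13 (1.05) past 2-fold.

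Genes of heat production and fat storage did not stand out as groups. Of 25 thermogenic genes 17 passed, with a median of 0.21 and 1 past 2-fold, the coactivator Ppargc1b, with 55 counts in the IMP2 library, 433 in the IgG library, and 61 and 170 in total RNA (log2 -1.29, 95% interval -1.72 to -0.88). Its relative Ppargc1a, which drives mitochondrial biogenesis, had 34 counts in the IMP2 library, 159 in the IgG library, and 40 and 76 in total RNA (log2 -0.54, 95% interval -1.12 to 0.00). Of 29 adipocyte and lipid droplet genes 28 passed, with a median of 0.23, and Lpl was the 1 past 2-fold. Fabp4, the fatty acid carrier of adipocytes, had 9112 CPM in the IMP2 library, 7856 CPM in the IgG library, and 4898 and 4890.3 CPM in total RNA (log2 0.21), so both immunoprecipitates lay above total RNA.

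Lipogenesis and sterol synthesis was spread widely, with a median of -0.04 over 22 genes, which was above 0 with a count minimum of 10. Elovl6 was lowest, followed by Mlxipl, the carbohydrate-sensing transcription factor (-0.88), and Acaca, which makes malonyl-CoA (-0.80). Lss, an enzyme of sterol synthesis, was highest at 1.85, with 38 counts in the IMP2 library, 34 in the IgG library, and 15 and 12 in total RNA.

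Lists of RNA-handling genes were below the median of all genes. Of 29 splicing regulators that passed, 21 were below 0, with a median of -0.27. Of these, 5 were at 1/2 or less, among them the nuclear speckle proteins Son (-1.29) and Srsf11 (-1.27) and Clk1 (-1.22), a kinase of splicing factors. Mbnl2, a regulator of alternative exons, was past 2-fold the other way (1.14). Translation factors had a median of -0.14 over 32 genes, with Eif5b and Eif3a (-1.46) at 1/2 or less. RNA-binding proteins of mRNPs had a median of -0.23 over 17, with none past 2-fold, though their median lay above 0 with a count minimum of 50. They ran from Larp1 (-0.66), which binds capped ends of ribosomal protein mRNAs, to Ybx1 (0.47).

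Of 24 long noncoding and small nuclear RNAs 6 passed. The nuclear RNAs Malat1 and Neat1 (-0.55) and the imprinted Meg3 (-1.29) were below 0. H19, an imprinted RNA that lies next to Igf2, was above it, with 413 CPM in the IMP2 library, 230.0 CPM in the IgG library, and 267 and 219 CPM in total RNA (log2 0.85).

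Of 15 mRNAs reported as targets of the IGF2BP family, 11 were listed and 6 passed. They were H19, Actb, Igf2, Ucp1, Nras and Lamb2, with a median of 0.12 that was below 0 by library size alone, and none was past 2-fold. Igf2, the growth factor mRNA after which the family is named, had 46 counts in the IMP2 library, 136 in the IgG library, and 52 and 74 in total RNA (log2 0.12, 95% interval -0.39 to 0.61). Its interval included 0. Actb, the beta-actin mRNA, had 2684 CPM in the IMP2 library, 2102 CPM in the IgG library, and 4870.1 and 3363 CPM in total RNA (log2 0.35, 95% interval 0.29 to 0.41), so it was less abundant in both immunoprecipitates than in total RNA.

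Extracellular matrix genes split in both directions. Of 28 genes 20 passed, with a median of 0.18 that was below 0 by library size alone. Besides Col6a1 and Col6a2, the proteoglycan Bgn (1.14) and the basement membrane collagen Col15a1 (1.08) were past 2-fold, and the laminin chain Lamb1 was at 1/2 or less (-1.08). Genes of protein folding and the secretory pathway had a median of 0.15 over 24, below 0 by library size alone, with P4hb, a disulfide isomerase (1.23), past 2-fold. Lysosome (0.32 over 24), proteasome (0.12 over 30, below 0 by library size alone) and immediate early genes (0.41 over 6) had none past 2-fold.

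**Figure D4:**
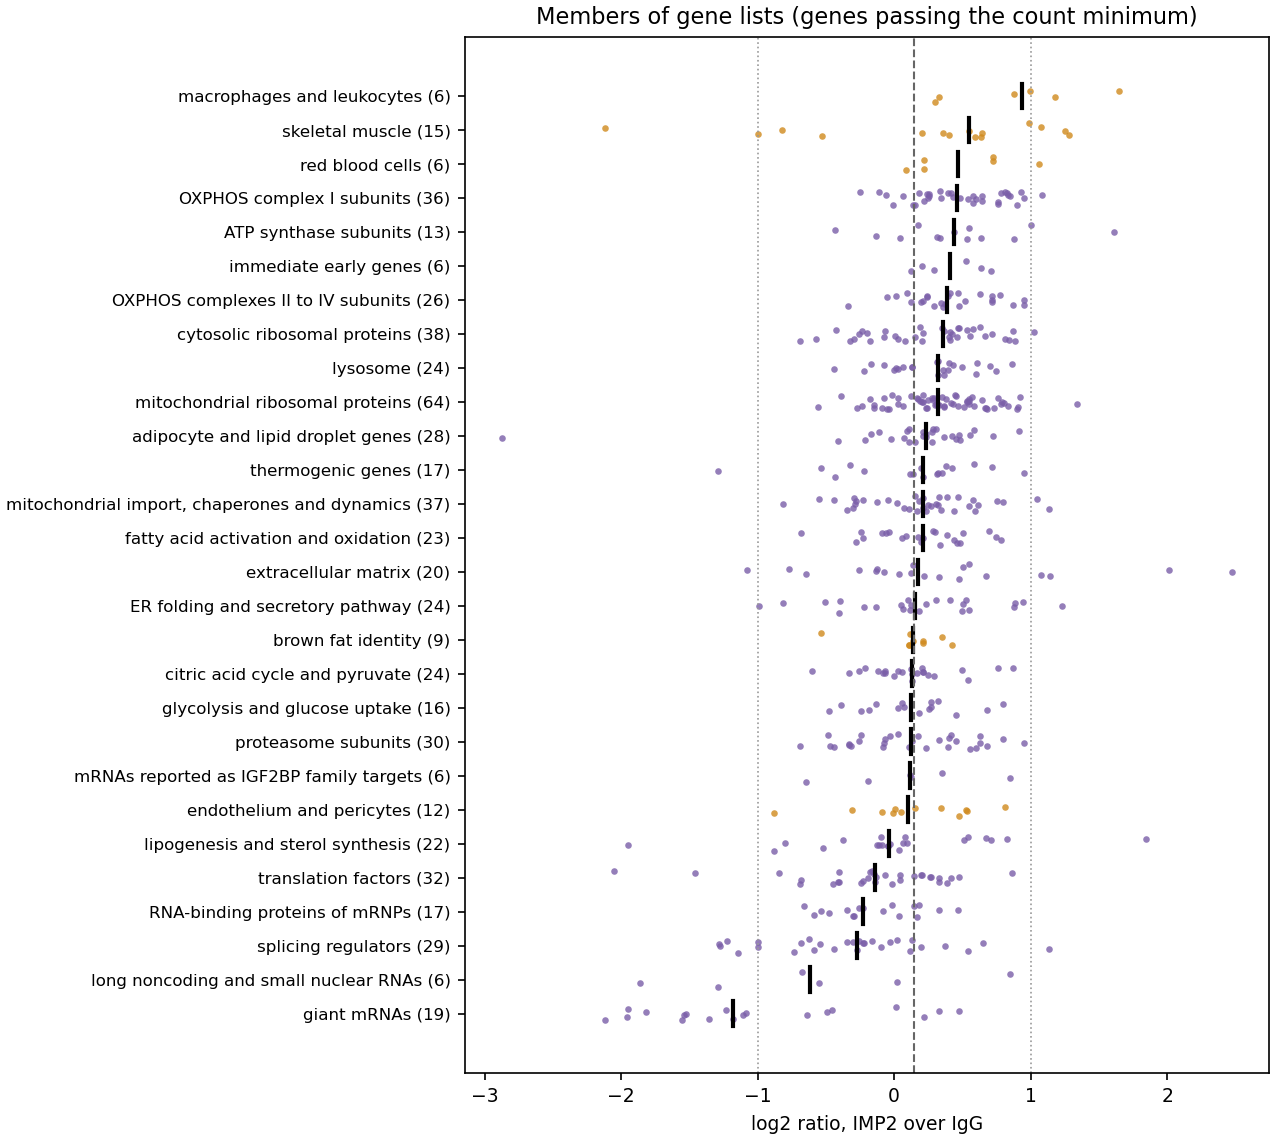
Log2 ratio of IMP2 over IgG (horizontal axis) for the genes of each list that passed the count minimum, with their number in brackets; purple points belong to lists by function, orange ones to markers of cell types, and bars are medians. The dashed line is the median of all 5161 genes (0.14) and dotted lines mark 2-fold; giant mRNAs lie farthest to the left, and macrophage and muscle markers farthest to the right.

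Markers of other cell types differed between the immunoprecipitates. In bulk libraries such as these, fewer cells of a type, less RNA per cell and unequal recovery of an RNA by the antibodies cannot be told apart. Of 16 skeletal muscle genes 15 passed, with a median of 0.55. Pvalb, a calcium buffer of fast fibres (1.28), Atp2a1, their calcium pump (1.25), and the myosin light chain Mylpf (1.08) were past 2-fold, while Ttn was at 1/2 or less and the myosin heavy chain Myh1 was low (-0.82). Summed over the list, muscle RNA made up 9756 CPM in the IMP2 library, 7116 CPM in the IgG library, and 18394 and 9989 CPM in total RNA, so it varied more within total RNA than between the antibodies.

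Of 18 macrophage and leukocyte markers 11 were listed and 6 passed, all above 0 with a median of 0.93. C1qa, with 78.6 CPM in the IMP2 library, 25.2 CPM in the IgG library, and 70.3 and 74.0 CPM in total RNA, and H2-Aa, a class II histocompatibility chain (1.18), were past 2-fold. Their summed level was 492 CPM in the IMP2 library, 276 CPM in the IgG library, and 373 and 458 CPM in total RNA. None of 14 lymphocyte markers was listed.

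Of 10 red blood cell genes 6 passed, all above 0, with a median of 0.47 and Hbb-bs past 2-fold (1.06). Globin genes share reads with near-identical copies, and Hba-a1 and Hba-a2 had identical counts here. Their summed level was 2336 CPM in the IMP2 library, 1306 CPM in the IgG library, and 4672 and 3295 CPM in total RNA. Endothelium and pericyte genes had a median of 0.10 over 12, below 0 by library size alone, and none was past 2-fold. Of 13 Schwann cell and nerve genes 4 passed, among them S100b, a calcium-binding protein (0.76). The part of these cell types in the ratios was not tested.

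The second table gave the antibody a separate look, since its IMP2 immunoprecipitates of wild-type (21 and 22) and knockout mice (23 and 24) share no library with the IgG comparison. It lists 1189 genes, all of which passed the minimum here, and the rule by which genes were listed in it is not given in the sources used here. Its CPM are scaled over these 1189 genes alone, so they cannot be set beside the CPM of libraries 25 and 26. Across these genes the log2 ratio of IMP2 over IgG had a Pearson's r of 0.25 and a Spearman's rho of 0.28 with that of wild-type over knockout immunoprecipitate, and r of -0.01 and rho of -0.01 with that of wild-type immunoprecipitate over wild-type total RNA (16 and 17). The points are genes, which share library, length and base composition and are not independent.

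Of the 249 genes at least 2-fold higher over IgG, 54 were in the second table, and 40 of them (74.1%) were above 0 in wild-type over knockout immunoprecipitate, against 616 of all 1189 (51.8%). Both wild-type values were above both knockout values for 24 of the 54 (44.4%), against 320 of 1189 (26.9%). Of the 11 lower genes listed there, 5 were above 0. A 2-fold difference in both was seen for 2 of the 54, which were Pvalb and Atp2a1, against 10 of all 1189 genes (0.841%) at least 2-fold higher in wild-type over knockout immunoprecipitate. These ratios were not adjusted for total RNA differences between the genotypes. In wild-type immunoprecipitate over wild-type total RNA, 23 of the 54 were above 0 (median log2 -0.08), against 605 of all 1189 (median 0.01).

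Gene by gene the 2 backgrounds gave unlike values. Col6a1 was high against both backgrounds. It had 139.7 and 159 CPM in the wild-type IMP2 immunoprecipitates, against 85.8 and 96.1 CPM in the knockout ones (log2 0.72). The groups did not overlap. Total RNA of Col6a1 was also higher in wild type without overlap, with 119.8 and 183.5 CPM, against 99.9 and 107.4 CPM in knockout. Its log2 ratio of wild-type immunoprecipitate over wild-type total RNA was -0.02. The part of total RNA in the Col6a1 difference was not tested. Mospd3, the highest over IgG, had 179.8 and 240.4 CPM in the wild-type IMP2 immunoprecipitates, against 213 and 197 CPM in the knockout ones (log2 0.04), so the groups overlapped. The muscle genes varied widely between libraries of 1 group. Pvalb had 259 and 1293 CPM in the wild-type IMP2 immunoprecipitates, against 80.2 and 244 CPM in the knockout ones, and Atp2a1 had 181 and 607 CPM in the wild-type IMP2 immunoprecipitates, against 41.1 and 146 CPM in the knockout ones. The groups did not overlap for either, though the lower wild-type and the higher knockout value of Pvalb were close. Muscle RNA differed among total RNA libraries of 1 group too, and between the genotypes. Pvalb had 257 and 1009 CPM in wild-type total RNA, against 74.1 and 243 CPM in knockout total RNA. Atp2a1 had 270 and 1141 CPM in wild-type total RNA, against 53.7 and 227 CPM in knockout total RNA. The higher wild-type values of both genes were thus present in total RNA as well, and the part of muscle RNA in these ratios was not tested.

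Mfge8 had opposite signs against the 2 backgrounds. It was lower in wild type, with 224 and 274 CPM in the wild-type IMP2 immunoprecipitates, against 348 and 380.4 CPM in the knockout ones (log2 -0.55), without overlap. Total RNA of Mfge8 was also lower in wild type, with 247 and 289 CPM, against 373 and 344 CPM in knockout. Ucp1 had 6693 and 10859.7 CPM in the wild-type IMP2 immunoprecipitates, against 5559 and 8734 CPM in the knockout ones (log2 0.30), and its groups overlapped. Capns1, with 2587 and 2472 CPM in the wild-type IMP2 immunoprecipitates, against 2488 and 2109 CPM in the knockout ones, also overlapped. Macf1 had 269.7 and 195 CPM in the wild-type IMP2 immunoprecipitates, against 269 and 240.3 CPM in the knockout ones, again with overlap.

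**Figure D5:**
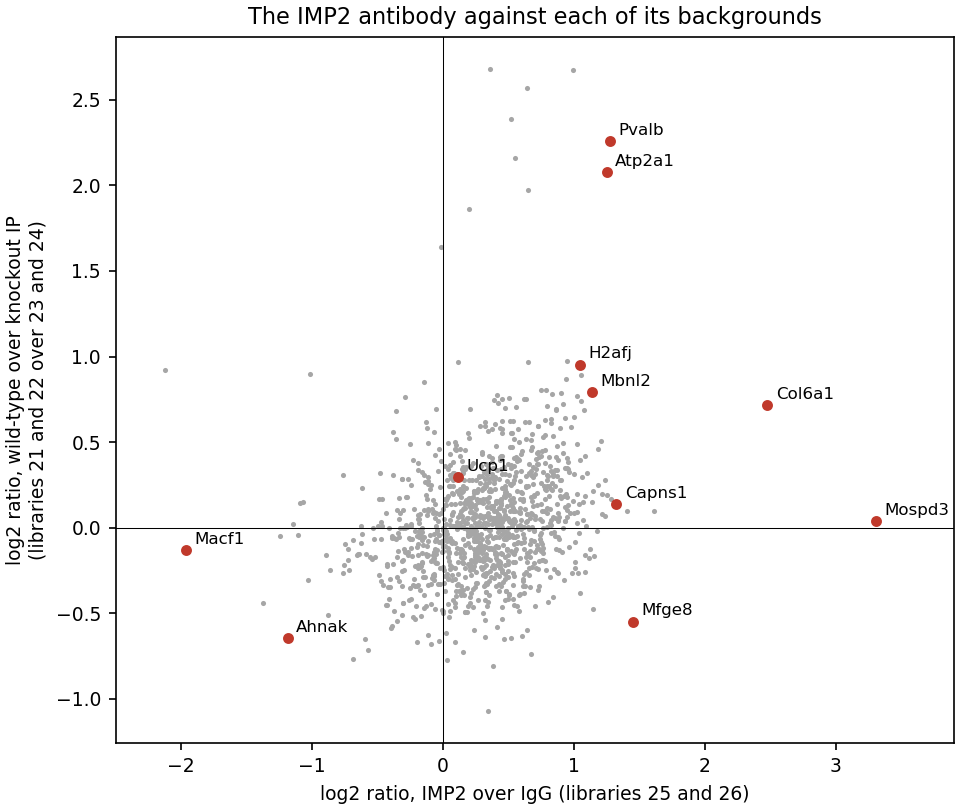
Each point is 1 of the 1189 genes in both tables, with its log2 ratio of IMP2 over IgG (horizontal axis) and its log2 ratio of wild-type over knockout IMP2 immunoprecipitate (vertical axis). Named genes are in red: Col6a1, Pvalb and Atp2a1 are above 0 on both axes, Mospd3 is near 0 on the vertical axis, and Mfge8 has opposite signs on the axes.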

How the data were processed

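RNA of 12 brown fat libraries was sequenced, and 4 of them, in 1 table, carry the comparison of IMP2 with IgG. The deposited values are whole-number read counts per RefSeq transcript, made by the authors and not scaled. TopHat2 2.0.8, Cufflinks 2.1.1 and mm10 are named in the submitters' processing notes. The counting tool, annotation version, strandedness and listing rule were not given in the sources used here, so overlapping genes cannot be told apart. Per the labels' protocols, Trizol and columns were used to isolate RNA.

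Of 12840 transcripts 835 had no symbol. A RefSeq table for GRCm38.p6, the assembly of mm10, named 813 by accession, and the other 22, with 7.39 to 15.8% of listed counts per library, were left out. It also gave coordinates and gene span. TMM factors came from edgeR 4.0.16 in R 4.3.3 over the 4 libraries of the table, and separately over the libraries of the second table. Ratios were conditional on the sum of both counts, with Clopper-Pearson intervals at 95% from scipy 1.17.1, and were tested on simulated data. With 1 library a group, no p-value was computed.

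The comparison, the 30 gene lists and the naming rule were chosen with earlier results of these data known. The rule names the 15 highest and 15 lowest genes by the interval bound nearest to a ratio of 1, leaving out predicted genes and those with counts identical to another gene. It also names Igf2bp1 to Igf2bp3, Ucp1, up to 3 genes at each end of a list, and the genes with most counts among those under the minimum in 1 library. Some of the genes it names are not reported here. Other genes named were chosen after their values were seen. A planned split by protein length was replaced by gene span, since no protein table was used. Alternatives were other scalings, count minimums, treatments of transcripts and the interval itself.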

Additional observations from a re-analysis of the deposited data

How the results depend on the processing

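With TMM scaling and a minimum of 20 counts, 249 genes were at least 2-fold higher and 170 at 1/2 or less. Scaling by library size alone gave 131 and 277. A minimum of 10 counts gave 395 and 337, of 50 counts 122 and 60, of 100 counts 86 and 27, and no minimum 539 and 1055. A scaled mean of at least 20 counts in place of the minimum gave 282 and 510, and requiring the whole interval past 2-fold left 40 and 43. Leaving Lars2 out of library sizes, an alternative chosen after seeing the data, gave 177 and 230. The causes were not tested, except that other minimums change which genes are counted. Of 352 alternative list medians, 12 had the other sign, 8 of them by library size alone. Of 248 alternative values for 31 named genes, 1 had the other sign, Ucp1 by library size alone. No paired analysis was possible because each antibody has 1 library and no test was made, and for the same reason no library could be left out. Depth limits the IMP2 side most, where 3029 genes were under the minimum that passed it in the IgG library.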
